A study of Homo sapiens with 4 samples.

Results

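The mRNAs of 9 enzymes that make serine and pass its carbon to folate were followed in RNA immunoprecipitation sequencing (RIP-seq) of PHGDH, the enzyme that the antibody in the experiment recognises. The set was taken by gene symbol from the pathway: PHGDH, PSAT1 and PSPH for serine synthesis, SHMT1 and SHMT2 for the conversion of serine to glycine, MTHFD1, MTHFD2 and MTHFD1L for the folate-bound one-carbon units, and TYMS for thymidylate synthesis. All 9 symbols were found among the 44715 listed. The question addressed was how the antibody target's own mRNA compared with those of its pathway neighbours, and with genes of similar level.

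The cells were HEK293T, an established line from human embryonic kidney in which the SV40 large T antigen is expressed, with no treatment or genotype that set the groups apart. Native lysates were precipitated either with an antibody against PHGDH (2 libraries) or with a control IgG antibody (2 libraries), and the series describes the libraries of each antibody as biological replicates. By the labels the groups differ only in the antibody. Values are given with replicate 1 before replicate 2 throughout. Fewer copies of an mRNA in the lysate and less of it in the precipitate cannot be told apart, since no library of unprecipitated RNA was analysed here. The epitope and clone of the antibody are not given in the sources used here.

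Serine is made from a glycolytic phosphoglycerate in a short chain of enzymes, of which PHGDH (phosphoglycerate dehydrogenase) is the first, PSAT1 (phosphoserine aminotransferase) the second and PSPH (phosphoserine phosphatase) the last. Serine hydroxymethyltransferases, SHMT1 in the cytosol and SHMT2 in mitochondria, then split serine into glycine and a carbon unit that is carried by tetrahydrofolate. MTHFD2 and MTHFD1L handle that unit in mitochondria and MTHFD1 handles it in the cytosol, from where TYMS uses it to make thymidylate for DNA. Proliferating lines such as HEK293T draw on this route for nucleotides.

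Values are CPM, the reads of a gene scaled to the same total in every library. The anti-PHGDH libraries rested on 3365837 and 1216477 reads, and the IgG libraries on 3875746 and 1579430. IgG replicate 1 stood apart from the rest: it was the deepest library and yet listed 4148 genes above 0, against 14518 to 16767 in the others. The results on the enzymes are therefore also given without it or against IgG replicate 2 alone. Mitochondrially encoded genes took 28.8% and 8.69% of the reads from the PHGDH precipitates and 3.87% and 3.37% of those from the IgG controls, so CPM values of all nuclear genes in anti-PHGDH replicate 1 are scaled down relative to the rest. Of 6 markers of HEK293T cells all had reads, and 3 of them (NEFM, IGF2BP1 and VIM) had reads in all 4 libraries. PAX2 and INA were low, at most 1.90 and 6.24 CPM. In the 3 libraries where they had reads, both lay below the fibroblast marker COL1A1, which was at 7.60 to 12.3 CPM there. The markers of blood cells were at 0 in every library (3 of 3), and the 7 markers of other cell types summed to between 0 and 14.0 CPM per library.

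PHGDH mRNA, the message of the antibody's target, had the largest log2 fold change of the 7 enzymes tested and was the only one of them called higher. The gene lies on chromosome 1 (GRCh38, 119711934 to 119744215). It was at 6550.2 CPM in anti-PHGDH replicate 1 (22047 reads) and at 1531 CPM in anti-PHGDH replicate 2 (1863 reads). It was at 0 in IgG replicate 1 and at 461 CPM in IgG replicate 2 (728 reads). Both anti-PHGDH libraries were above both IgG libraries, but the replicates of each antibody lay far apart: 4041 ± 3549 CPM in the PHGDH precipitates and 230.5 ± 326 CPM in the IgG controls (SD, n = 2 each). Ordered by CPM without regard to length, PHGDH was the gene of rank 12 in anti-PHGDH replicate 1, rank 108 in anti-PHGDH replicate 2 and rank 317 in IgG replicate 2.

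The log2 fold change of PHGDH on log2(CPM + 1) was 7.20 (SE 1.45; limma adjusted p = 0.0062). The median log2 fold change of all 9524 genes tested was 1.92, so PHGDH lay 5.28 above it. A gene was tested if it reached 5 CPM in 2 or more libraries, which kept 7 of the 9 enzymes and left out SHMT1 and TYMS. PHGDH was the 1 enzyme of 7 called higher, and it was also the only gene called higher of all genes tested (0.0105%). Called lower were 0 of the 7 enzymes and 0% of all genes. At an unadjusted p under 0.05 limma had 261 genes higher and 0 lower. The recovered reads, tested with edgeR's quasi-likelihood method, gave 0 called genes in either direction (before adjustment, 21 were higher and 162 lower at 0.05), and PHGDH had an adjusted p of 1.00 there and 0.951 in DESeq2.

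The size of the PHGDH difference depended on the control library used. The estimate was 2.78 without IgG replicate 1 and 11.63 without IgG replicate 2, which leaves the library at 0 as the control. It was 6.16 without anti-PHGDH replicate 1 and 8.25 without anti-PHGDH replicate 2. Each of these fits leaves 1 library for an antibody, so no p-value is given for them. The call of PHGDH rests on all 4 libraries. The spread of PHGDH within groups was 4.55 on the log2 scale, while its SE came from the trend of spread with level over all genes, which is narrower.

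**Figure D1:**
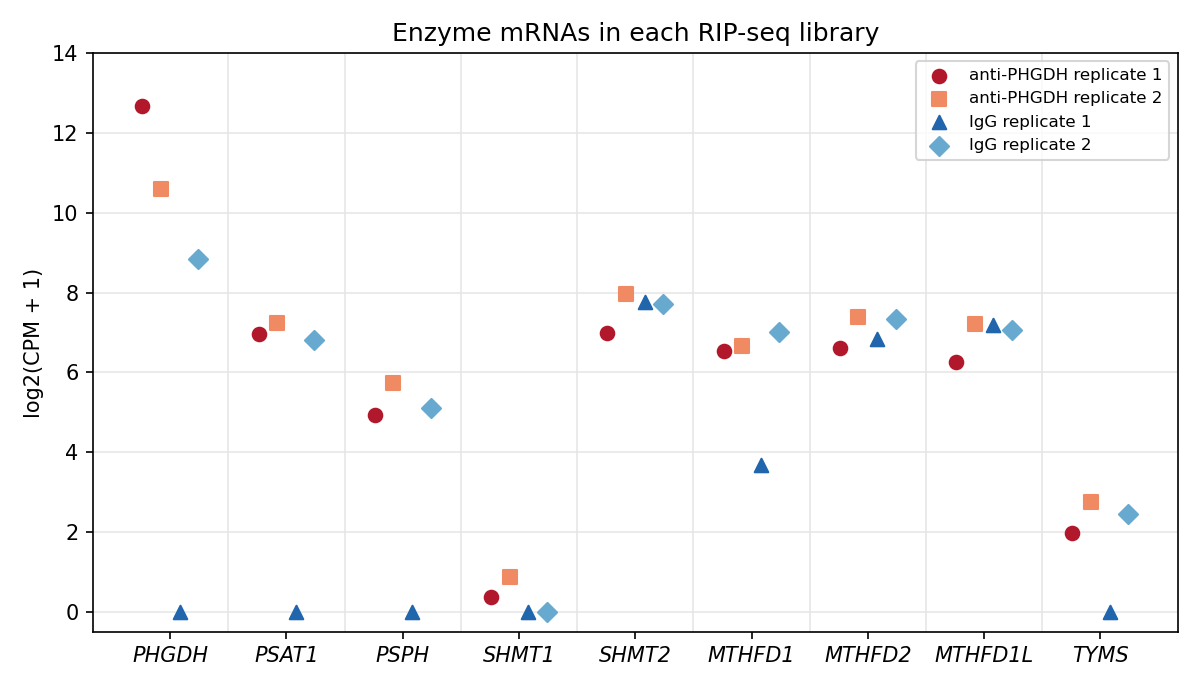
Level of the 9 enzyme mRNAs, as log2(CPM + 1) on the vertical axis, with 1 point per library and the genes along the horizontal axis. PHGDH is separated by antibody, PSAT1 and PSPH differ mainly by their 0 in IgG replicate 1, and the points of SHMT2, MTHFD2 and MTHFD1L overlap between antibodies.

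The other enzymes of serine synthesis, PSAT1 and PSPH, were not called, and each was at 0 in IgG replicate 1 only. PSAT1 (chromosome 9, GRCh38, 78297125 to 78330093) was at 123 and 150.4 CPM in the PHGDH precipitates, against 0 and 111 CPM in the IgG controls. Both anti-PHGDH values were above both IgG values, with 123 CPM as the lower of the former and 111 CPM as the higher of the latter. The fitted log2 fold change of 3.70 (SE 2.10; limma adjusted p = 0.677) became 0.30 when IgG replicate 1 was left out. Without IgG replicate 2, which leaves the library at 0 as the control, it was 7.10.

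PSPH (chromosome 7, GRCh38, 56011064 to 56051444), whose product releases serine from phosphoserine, was at 29.4 and 52.6 CPM in the PHGDH precipitates, against 0 and 33.6 CPM in the IgG controls. IgG replicate 2 lay between the anti-PHGDH libraries, so the groups overlapped. The fitted log2 fold change of 2.78 (SE 2.62; limma adjusted p = 0.677) became 0.22 when IgG replicate 1 was left out, and 5.34 without IgG replicate 2 (limma adjusted p = 8.4e-12).

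Of the serine hydroxymethyltransferases, SHMT1 was barely detected and SHMT2 overlapped between antibodies. SHMT1 (chromosome 17, GRCh38, 18327873 to 18363550) had 1 read in each anti-PHGDH library and 0 reads in each IgG library, and no fold is given because the counts are under the 3 reads that a count of 0 allows. SHMT2 (chromosome 12, GRCh38, 57229711 to 57234935) was at 126 and 247 CPM in the PHGDH precipitates, against 215 and 208 CPM in the IgG controls. The IgG libraries lay between the anti-PHGDH libraries. The fitted log2 fold change of -0.26 (SE 1.52; limma adjusted p = 0.909) changed sign with quantile normalization (0.10) and without anti-PHGDH replicate 1 (0.22).

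The mitochondrial folate enzymes overlapped between antibodies, and neither was called. MTHFD2 (chromosome 2, GRCh38, 74198615 to 74217565), a dehydrogenase and cyclohydrolase, was at 97.2 and 168 CPM in the PHGDH precipitates, against 114 and 161 CPM in the IgG controls. MTHFD1L (chromosome 6, GRCh38, 150865702 to 151101887), which releases formate, was at 75.2 and 148 CPM in the PHGDH precipitates, against 144 and 133 CPM in the IgG controls. Their groups overlapped, and their log2 fold changes were -0.09 and -0.39 (SE 1.63 and 1.65; limma adjusted p = 0.972 and 0.876). The sign for MTHFD2 turned in 4 alternatives and that for MTHFD1L in 1, so neither has a direction.

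The cytosolic enzymes MTHFD1 and TYMS also overlapped between antibodies. MTHFD1 (chromosome 14, GRCh38, 64388353 to 64460025), which carries out several steps of cytosolic folate conversion in 1 protein, was at 91.8 and 99.5 CPM in the PHGDH precipitates, against 11.9 and 129 CPM in the IgG controls. The anti-PHGDH libraries lay between the IgG libraries. The fitted log2 fold change of 1.24 (SE 1.88; limma adjusted p = 0.682) became -0.42 when IgG replicate 1 was left out, and 2.91 without IgG replicate 2 (limma adjusted p = 0.00064). TYMS (chromosome 18, GRCh38, 657653 to 673578) had 10 and 7 reads with anti-PHGDH and 0 and 7 reads with IgG, or 2.97 and 5.75 CPM against 0 and 4.43 CPM. Against IgG replicate 2 no difference in TYMS was detectable at this depth, while the 10 reads of anti-PHGDH replicate 1 stood against 0 in the deeper IgG replicate 1.

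Of the 7 enzymes tested, 2 (PHGDH and PSAT1) had both PHGDH precipitates above both IgG controls, where 38.3% of all genes tested were, and 0 were lower in both, where 6.16% were. The share among the enzymes is not above that background. The median log2 fold change of the 6 tested neighbours of PHGDH was 0.58, against 1.92 over all genes tested, and 2 of the 6 lay above the latter median. With quantile normalization the median over all genes was -0.05, below the 0.24 of the neighbours, so the order turned. It was 1.78 against 0.32 for the neighbours with TMM factors, 2.16 against 0.83 after the mitochondrial genes were left out, and 0.14 against -0.28 without IgG replicate 1. In IgG replicate 1, 33.3% of the 6 neighbours and 61.9% of all genes tested were at 0. Within the libraries numbered 2 the median log2 difference was 0.20 for the neighbours and 0.18 for all genes tested.

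A ratio of 1 library to another avoids the mixture of the IgG libraries, with intervals that cover counting error only. Within the libraries numbered 2, the ratio of PHGDH precipitate to IgG control was 3.32 for PHGDH mRNA (95% interval 3.05 to 3.62). PSPH was 1.57 times as high (1.07 to 2.30) and PSAT1 1.36 times (1.10 to 1.68). SHMT2 was at 1.19 times (1.01 to 1.39) and MTHFD1 at 0.774 times (0.613 to 0.974). The intervals of MTHFD1L, TYMS and MTHFD2 included 1, at 1.11 (0.907 to 1.36), 1.30 (0.389 to 4.34) and 1.04 (0.860 to 1.25). The interval of PHGDH lay above those of the 6 tested neighbours, while that of TYMS, on 7 reads in each library, reached across it. By log2(CPM + 1), 1 of the 7 enzymes tested was at least 2 times as high with anti-PHGDH in this pair, PHGDH, against 12.5% of all genes tested, and 0 of the 7 were at most 0.5 times as high, against 1.97%.

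Anti-PHGDH replicate 1 against IgG replicate 2 gave a wider gap between PHGDH and its neighbours. PHGDH was 14.2 times as high (13.2 to 15.3), PSAT1 1.11 times (0.930 to 1.34) and PSPH 0.877 times (0.622 to 1.25). The folate enzymes were below the control, from 0.565 for MTHFD1L (0.469 to 0.682) to 0.714 for MTHFD1 (0.596 to 0.857). SHMT2 was at 0.603 (0.521 to 0.699), MTHFD2 at 0.602 (0.509 to 0.712) and TYMS at 0.670 (0.230 to 2.07). Most genes within 1.5 times their CPM in IgG replicate 2 were low here too. The median ratio of such genes was 0.705 around MTHFD1L, 0.706 around MTHFD1, 0.618 around SHMT2 and 0.627 around MTHFD2. Around TYMS, a gene of few reads, it was 1.41. With mitochondrial genes left out of the totals the enzyme ratios were 19.3 for PHGDH, 1.51 for PSAT1 and 1.19 for PSPH. They ran from 0.767 (MTHFD1L) to 0.970 (MTHFD1) for the folate enzymes. In this pair 1 of the 7 enzymes, PHGDH, was at least 2 times as high with anti-PHGDH, against 24.4% of all genes tested, and 0 were at most 0.5 times as high, against 14% of them. Both sets of ratios share IgG replicate 2.

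**Figure D2:**
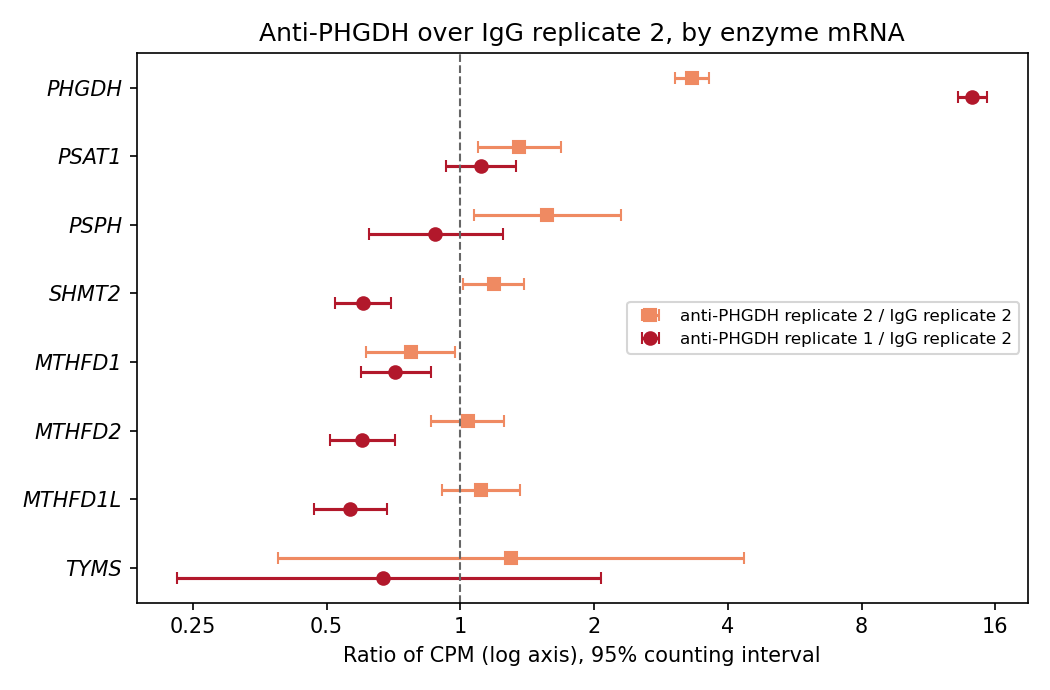
Ratio of CPM in each anti-PHGDH library to IgG replicate 2 (horizontal log axis) for 8 enzyme mRNAs, with bars for the 95% interval of counting error and a dashed line at a ratio of 1. PHGDH lies at 3.32 and 14.2, to the right of the points of its neighbours, and TYMS has the widest intervals because it rests on 7 to 10 reads.

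IgG replicate 1 split the enzymes into those it detected and those it did not. SHMT2, MTHFD2 and MTHFD1L had 834, 441 and 557 reads there, and MTHFD1 had 46. PHGDH, PSAT1, PSPH, SHMT1 and TYMS had 0. At the level of IgG replicate 2, its depth would have given 1786 reads of PHGDH, 429 of PSAT1 and 130.1 of PSPH. By counting error alone, a count of 0 allows 0.774 CPM in IgG replicate 1. On that footing anti-PHGDH replicate 1 would be at least 8462-fold higher for PHGDH, at least 159-fold for PSAT1, at least 38.0-fold for PSPH and at least 3.84-fold for TYMS. These bounds set the 0 at 3 reads. They do not cover dropout of genes from that library, where 61.9% of all genes tested were at 0, so they are not limits on the true fold. The exact 95% intervals of counting error, which have no upper end here, began at 6881, 129, 30.3 and 2.58. For the enzymes that IgG replicate 1 did detect, the same pair gave 0.584 for SHMT2 (0.518 to 0.657), 0.523 for MTHFD1L (0.449 to 0.608), 0.854 for MTHFD2 (0.738 to 0.987) and 7.74 for MTHFD1 (5.66 to 10.8).

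A 0 in IgG replicate 1 was rarer among genes near PHGDH's level than among those near the level of PSAT1, PSPH or TYMS. Among the 209 genes whose CPM in IgG replicate 2 lay within 1.5 times that of PHGDH, 18 (8.61%) were at 0 in IgG replicate 1, PHGDH among them. Around PSAT1 it was 270 of 823 genes (32.8%), around PSPH 1155 of 1988 (58.1%) and around TYMS 1966 of 2261 (87.0%). Around SHMT2, which was detected, it was 113 of 519 (21.8%). The part of this dropout in the PHGDH fold change was not tested beyond the values without that library.

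The share of PHGDH among the reads of the 9 enzymes needs no scaling between libraries. It is not corrected for length, so it is compared between libraries only. The share was 92.3% in anti-PHGDH replicate 1 (22047 of 23884 reads, 95% Wilson interval 92.0 to 92.6%) and 63.7% in anti-PHGDH replicate 2 (1863 of 2924 reads, 62.0 to 65.4%). It was 37.1% in IgG replicate 2 (728 of 1960 reads, 35.0 to 39.3%). In IgG replicate 1 it was 0 of 1878 reads. By counting error alone this allows a share of up to 0.160% by the floor of 3 reads and of up to 0.204% by the Wilson interval. Neither limit covers dropout of genes from that library. The reads of the other 8 enzymes together came to 546 and 872 CPM in the PHGDH precipitates and to 485 and 780.0 CPM in the IgG controls, so they overlapped between antibodies.

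**Figure D3:**
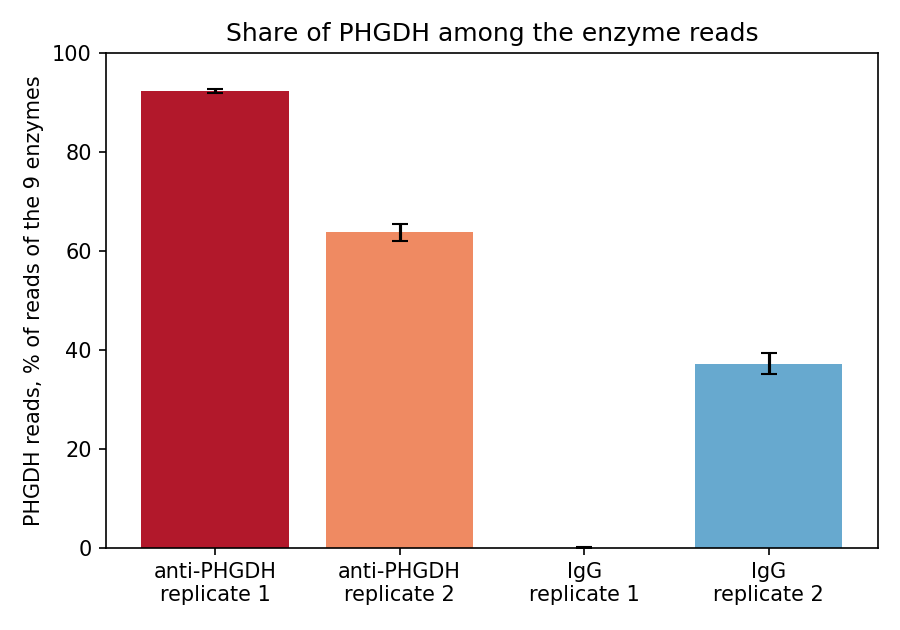
PHGDH reads as a percentage of all reads of the 9 enzymes, 1 bar per library, with 95% Wilson intervals of counting error. The anti-PHGDH libraries stand at 92.3% and 63.7%, above IgG replicate 2 at 37.1%, and IgG replicate 1 has no PHGDH read.

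On the log2(CPM + 1) scale, PHGDH minus the median of the other 8 enzymes was 6.28 and 3.65 in the PHGDH precipitates and -1.84 and 1.94 in the IgG controls. Gene length enters this difference, so only its change between libraries is read. In IgG replicate 1, where PHGDH and 4 of the other 8 enzymes were at 0, the value is set by those zeros and the pseudocount, and the change is partly one against a floor. The means were 4.97 ± 1.86 for the PHGDH precipitates and 0.05 ± 2.68 for the IgG controls (SD, n = 2 each), a change of 4.92. Both anti-PHGDH libraries were above both IgG libraries, and the two-sided exact permutation test gave p = 0.333, the smallest that 2 against 2 libraries allow. Over 9 alternatives in scaling, pseudocount and libraries the change ran from 3.02 to 6.81.

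Among the 209 genes near PHGDH's level in IgG replicate 2, which ran from 308 to 686 CPM there, PHGDH had the rank 3 by its ratio in both anti-PHGDH libraries. The median ratio over these genes was 0.508 in anti-PHGDH replicate 1 and 0.918 in anti-PHGDH replicate 2, against 14.2 and 3.32 for PHGDH. The mitochondrially encoded complex I mRNAs ND5 (45.9 and 7.20) and ND2 (22.4 and 5.12) ranked above it, and ND4L (13.2 and 2.88) just below. PHGDH was thus the nuclear gene with the highest ratio of this set in both libraries. The next nuclear genes were CCNI at 4.14 in anti-PHGDH replicate 1 and MARCKSL1 at 2.45 in anti-PHGDH replicate 2. Of the 18 genes of this set at 0 in IgG replicate 1, PHGDH ranked 1 in both, and BECN1 followed at 2.04 and 1.85, with values that are not whole reads in the deposited tables.

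The neighbours did not reach such ranks among genes of their own level. By the ratio in anti-PHGDH replicate 2, PSAT1 ranked 100 of 823 genes, PSPH 277 of 1988, SHMT2 99 of 519, MTHFD1L 230 of 696, MTHFD2 251 of 621, TYMS 1024 of 2261 and MTHFD1 620 of 711. By the ratio in anti-PHGDH replicate 1 they ranked 214, 1168, 270, 439, 336, 1730 and 352 of the same sets. These ranks describe the 4 libraries and carry no test. With the level taken as the mean of the 4 libraries, PHGDH ranked 2 and 6 of 343 genes for anti-PHGDH replicates 1 and 2.

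**Figure D4:**
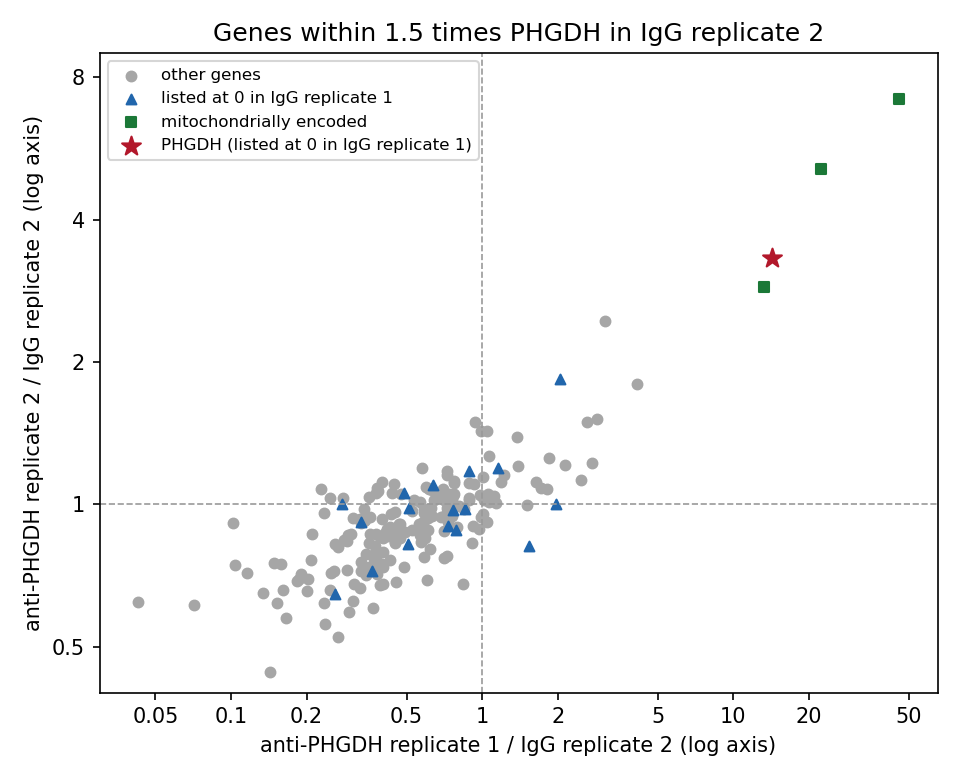
Ratio to IgG replicate 2 in anti-PHGDH replicate 1 (horizontal log axis) and replicate 2 (vertical log axis) for the 209 genes within 1.5 times PHGDH in IgG replicate 2, each point 1 gene. PHGDH (star) lies with the 3 mitochondrially encoded genes at the upper right, apart from the other genes at 0 in IgG replicate 1 (triangles). Both axes share IgG replicate 2.

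Among the genes with the profile closest to PHGDH over the 4 libraries, by the Euclidean distance of centred log2(CPM + 1), were C19orf48 (distance 1.90), DPM2 (1.95), GRINA (2.09) and MRPL4 (2.16). These 4 were at 0 in IgG replicate 1 and higher in anti-PHGDH replicate 1 than in replicate 2, by 3.70 times (MRPL4) to 9.27 times (DPM2), where PHGDH was 4.28 times higher. DPM2, a subunit of dolichol-phosphate mannose synthase, was at 2187 and 236 CPM in the PHGDH precipitates, against 0 and 126 CPM in the IgG controls. Their ratios within the libraries numbered 2 ran from 1.48 (C19orf48) to 4.85 (GRINA), and their log2 fold changes from 5.53 to 6.31, with a limma adjusted p of 0.677 for each. The enzymes other than PHGDH lay lower in anti-PHGDH replicate 1 than in replicate 2, from 0.361 times for SHMT1 on 1 read each to 0.923 times for MTHFD1. With mitochondrial genes left out, PSAT1 (1.05) and MTHFD1 (1.18) came above 1 in that ratio and PHGDH was at 5.49.

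A wider list of 40 genes of serine, glycine, folate and methionine metabolism held 27 that were tested, and 0 of these passed the threshold in limma in either direction (adjusted p from 0.677 to 0.971). Of the 27, 7 had both PHGDH precipitates above both IgG controls and 2 had both below, against 38.3% and 6.16% of all genes. Their median log2 fold change was 2.13, beside 1.92 over all genes tested, and 18 of them were at 0 in IgG replicate 1. Within the libraries numbered 2 the median log2 difference was 0.18 for the list and 0.18 for all genes tested. ALDH1L1, BHMT, BHMT2 and GNMT, enzymes best known from liver, were at 0 in all 4 libraries.

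The highest log2 fold changes of the wider list belonged to PTDSS1, AHCY and SLC19A1. PTDSS1, which builds serine into phosphatidylserine, was at 125 and 92.1 CPM in the PHGDH precipitates, against 0 and 67.7 CPM in the IgG controls (log2 fold change 3.71). AHCY, which clears S-adenosylhomocysteine, was at 327 and 376 CPM in the PHGDH precipitates, against 1.81 and 368 CPM in the IgG controls (3.45). SLC19A1, the reduced folate carrier, was at 47.2 and 38.6 CPM in the PHGDH precipitates, against 0 and 22.2 CPM in the IgG controls (3.18). Against IgG replicate 2 alone the anti-PHGDH libraries gave ratios of 0.889 and 1.02 for AHCY. They gave 1.84 (1.49 to 2.30) and 1.36 (1.03 to 1.79) for PTDSS1, and 2.13 (1.47 to 3.17) and 1.74 (1.10 to 2.78) for SLC19A1. In all 3 genes these ratios were far smaller than the fitted fold change, which includes the low value in IgG replicate 1.

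The lowest were GCSH, DHFR2 and DLD. GCSH, the lipoyl carrier of the glycine cleavage system, was at 12.5 and 54.3 CPM in the PHGDH precipitates, against 557 and 68.4 CPM in the IgG controls (log2 fold change -2.85). DHFR2, a dihydrofolate reductase, was at 1.19 and 7.40 CPM in the PHGDH precipitates, against 100.4 and 5.70 CPM in the IgG controls (-2.60). DLD, the dehydrogenase subunit of the glycine cleavage system, was at 29.1 and 68.2 CPM in the PHGDH precipitates, against 342 and 51.3 CPM in the IgG controls (-1.55). In each of these the highest value was that of IgG replicate 1, and within number 2 the ratios were 0.793, 1.30 and 1.33. Anti-PHGDH replicate 1 was below IgG replicate 2 as well, at 0.182 times for GCSH (0.125 to 0.263), 0.209 times for DHFR2 (0.0469 to 0.747) and 0.568 times for DLD (0.419 to 0.772). For DHFR2 and DLD the anti-PHGDH libraries thus lay on either side of IgG replicate 2.

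Over all genes tested 38.3% lay above both IgG libraries and 6.16% below, and no count by role was tested against these shares. The glycine cleavage genes had 0 of 3 tested members above both IgG libraries and 1 below. Folate reduction, transport and polyglutamation had 3 of 7 above (SLC19A1, the mitochondrial folate carrier SLC25A32 and the proton-coupled folate transporter SLC46A1) and 1 below, the folate hydrolase GGH. Other folate-dependent enzymes had 2 of 6 above, among them the mitochondrial formyltetrahydrofolate dehydrogenase ALDH1L2. The methionine cycle had 1 of 5 above, MAT2A, which makes S-adenosylmethionine and was at 101 and 25.5 CPM in the PHGDH precipitates, against 2.58 and 12.7 CPM in the IgG controls. The genes that use serine had 1 of 6 above, PTDSS1.

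Reads from related loci could reach these genes. The 12 listed pseudogene copies of the enzymes, among them PSPHP1 and copies of PSAT1 and MTHFD2, were at 0 in all 4 libraries. How reads that match both an enzyme and its copy were treated is not given in the sources used here. TYMS overlaps TYMSOS over 639 bases and ENOSF1 over 10593 bases of its span (GRCh38), and ENOSF1 was at 25.6 and 41.1 CPM in the PHGDH precipitates, against 0 and 36.1 CPM in the IgG controls. The use of strand in the counting is not given in the sources used here, so TYMS reads cannot be told apart from those of its overlapping neighbours. The same holds for MTHFD1 and ZBTB25, which overlap over 10920 bases, with ZBTB25 at most 9.87 CPM in any library. The spans of MTHFD1L, MTHFD2, SHMT1 and SHMT2 also overlap other genes. The longest of these overlaps is that of MTHFD1L with LOC124901432, over 13794 bases, for which no CPM is listed. MTHFD2 overlaps SLC4A5 over 1324 bases, with SLC4A5 at most 1.64 CPM. No listed gene overlaps the spans of PHGDH, PSAT1 or PSPH in the RefSeq table.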

How the data were processed

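The authors deposited CPM values per gene and library. Per the submitters' processing notes, STAR 2.5.4b and featureCounts were used with hg38; annotation, strand and duplicate handling are not given in the sources used here. CPM were whole multiples of 1 read (tolerance 0.0005 CPM) for 99.98% to 100% of values above 0, and all values of the 9 enzymes were whole, so reads were recovered. Per the labels' protocols, cDNA was amplified with a low-input kit and fragmented; no molecular identifiers are mentioned, so intervals and floors (3 reads) cover counting error only. The limma p-values rest on the spread between these 4 libraries as pooled over genes by level. A gene's own spread can be wider, as for PHGDH (4.55 on the log2 scale, SE 1.45).

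Differences were tested two-sided on log2(CPM + 1) by limma 3.58.1 under R 4.3.3, with a trend on intensity and no covariates. Genes reaching 5 CPM in 2 or more libraries entered, with Benjamini-Hochberg adjustment and a threshold of 0.05. Fold changes on this scale are understated for low genes, and those with a library at 0 move with the pseudocount. The fit without a library of an antibody assumes that the lone library varies like the others. Alternatives included edgeR 4.0.16 and DESeq2 1.42.0 on recovered reads.

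Ratios of 2 libraries carry exact conditional binomial 95% intervals. Named genes were the 9 enzymes, the 5 closest profiles to PHGDH (4 are reported here), and the 3 highest and 3 lowest log2 fold changes of the wider list. BECN1, CCNI, MARCKSL1, ND5, ND2, ND4L, the genes at 0 throughout and those named by role were chosen after their values were seen. The enzymes and lists were chosen with earlier results of these data known. Gene spans are from RefSeq for GRCh38.p14, the build that the notes name as hg38. mRNA lengths were not used here, so ranks and shares of reads are not corrected for length and are read only between libraries.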

Additional observations from a re-analysis of the deposited data

How the results depend on the processing

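The log2 fold change of PHGDH was positive in all 16 alternative fits and past the threshold in 7. It was not past it at a pseudocount of 5 (6.04), after quantile normalization (5.63), when the trend was omitted (7.20), in DESeq2 (4.35) and in edgeR, both plain (3.98) and with the replicate block (7.88). In these 6 fits 0 enzymes were called. Without 1 library the lowest PHGDH estimate was 2.78 (IgG replicate 1 left out) and the highest 11.63 (IgG replicate 2 left out). Over the fits on all 4 libraries, the adjusted p of PHGDH ran from 6.7e-06 (limma, pseudocount 0.1) to 0.9998 (edgeR). The number of all genes called higher, 1 as reported, was 11 at a pseudocount of 0.1, 6 without a filter, 4 in limma with the replicate block and 0 when the trend was omitted, in DESeq2 and in both edgeR fits. Without 1 library it ran from 0 to 7129, and the number called lower from 0 to 1032, both highest without IgG replicate 2; without IgG replicate 1 they were 99 and 3.

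Signs turned for SHMT2 (0.10 with quantile normalization; -0.75 to 0.22 without 1 library), MTHFD2 (0.17 without mitochondrial genes, 0.038 with quantile normalization; -0.48 to 0.30 without 1 library), MTHFD1 (-0.42 to 2.91 without 1 library) and MTHFD1L (-0.87 to 0.10 without 1 library). The number of the 9 enzymes above both IgG libraries, 3 with SHMT1 on 1 read per library, was 4 without mitochondrial genes. It ran from 3 to 8 without 1 library, with 8 when anti-PHGDH replicate 1 was left out. Leaving out a library removes a condition, so such a count can only stay or rise for any set of genes. The share of all genes was computed with all 4 libraries only, so the 8 has no background to be read against. The rank of PHGDH among genes of similar level in anti-PHGDH replicate 2 was 6 with the level as the mean of the 4 libraries. Its ratio in number 2 was 2.94 with TMM factors and 3.52 without mitochondrial genes, settings chosen after the data were seen. The cause of these changes was not tested. The titles give same-numbered libraries only a number in common, and their deviations correlated at r = 0.0058 over 9524 genes. This cannot decide whether they were paired, because the IgG deviation includes the zeros of IgG replicate 1, at 61.9% of these genes. With 2 libraries per antibody, and IgG replicate 1 at 0 for most genes tested, the size of any single difference is poorly fixed, and SHMT1 and TYMS are limited by depth.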
